A study of Rattus norvegicus with 8 samples.

Results

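Collagens and other genes of the extracellular matrix were examined in hyperthyroid and control rats, in the tibialis anterior, the fast muscle at the front of the shin. The members were the genes whose symbol begins with Col and a digit or with Lama, Lamb, Lamc, Mmp, Timp or Lox, together with Fn1, Dcn, Lum, Bgn, Fbn1, Sparc, Postn, Tnc, Nid1, Fmod, Eln and Thbs4. The platform annotation held 88 such genes among 14217 named genes, and each was represented by the brightest of its probe sets (the groups of short probes that measure 1 transcript). Of the 88, 60 were bright enough to be tested among 10200 genes, and 28 lay under the filter on low values. All rats were adult Sprague-Dawley animals of 200 ± 40 g at the start. The 4 hyperthyroid rats received T3 (triiodothyronine, the active thyroid hormone) at 25 µg per 100 g of body weight, injected intraperitoneally every 2 days for 6 weeks. Tissue was taken 24 hours after the final injection. The 4 control rats were untreated. Each group held 3 males and 1 female, 1 array was used per rat, and which array came from a female is not in the labels.

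The matrix around muscle fibres has layers with different makers and roles. Fibrillar collagens form the cables of the sheaths and of the tendon ends, where fibroblasts and tendon cells secrete them, and small proteoglycans such as decorin and fibromodulin control how the fibrils grow. Each fibre is wrapped in a basement membrane, a sheet of collagen IV and laminin networks joined by nidogen, to which the fibre is anchored through dystroglycan and integrins. Matrix metalloproteinases cut these proteins, tissue inhibitors of metalloproteinases (Timp) block the cutting, and lysyl oxidases cross-link collagen and elastin. Thyroid hormone is known to set fibre type and metabolism in this muscle, and the comparison asked which transcripts of the limb muscle differ after prolonged T3 excess.

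Values are array intensities on a linear scale, each array scaled to a mean of 150, and array medians ran from 38.8 to 42.0 in the hyperthyroid and from 43.5 to 54.9 in the control group. The ratio of the 3' to the 5' probe sets of Gapdh, a sign of RNA quality, ran from 1.202 to 1.309 and from 1.326 to 1.458. Neither the medians nor this ratio overlapped between the groups. The same ratio for beta-actin did overlap, from 1.434 to 1.901 in the hyperthyroid and from 1.476 to 2.162 in the control group. The part of these measures in the results was not tested. Tests were made on log2 intensities with limma, a linear model that shares information on variance across genes, with Benjamini-Hochberg adjustment over all 10200 genes and a threshold of 0.05. All 7 measured markers of skeletal muscle fibres, of 8 listed, were above the filter, with summed intensities from 195813 to 237869 in hyperthyroid and from 238326 to 284398 in control muscle, ranges that do not overlap. The part of this difference in the matrix values was not tested. Control replicate 11 stood apart from the other arrays on the first principal component of all transcripts (94.7, the others from -25.3 to 23.9). On the second component, control replicate 9 did so (-87.1, against -8.96 to 26.8). These are muscle homogenates, so fewer cells of a type and less RNA per cell cannot be told apart.

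No matrix gene passed the test in either direction. Over all genes, 0.0686% passed, and the smallest adjusted p among the 60 matrix genes was 0.413. At an unadjusted limma p under 0.05, 0 matrix genes were higher and 2 were lower in the hyperthyroid group, against 5.38% and 5.21% of all genes. The median log2 fold change of the 60 genes was -0.06, with 35 below 0, beside a median of -0.00029 and 50% below 0 over all genes. Over all 88 genes without the filter the median was -0.14, and over all 14217 genes it was -0.03. Centred on array medians or scaled to hybridization controls, which moved the median of all genes to 0.22 and 0.32, the members' median was 0.16 and 0.26, with 18 and 13 of 60 below 0. The arrays of both groups failed to overlap for 1 matrix gene, Timp3, which was lower, against 6.55% of all genes, 3.34% higher and 3.21% lower. A log2 fold change beyond 1 in either direction was found for 6 matrix genes (Bgn, Col11a1, Col18a1, Col2a1, Mmp13 and Tnc), against 4.59% of all genes.

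**Figure D1:**
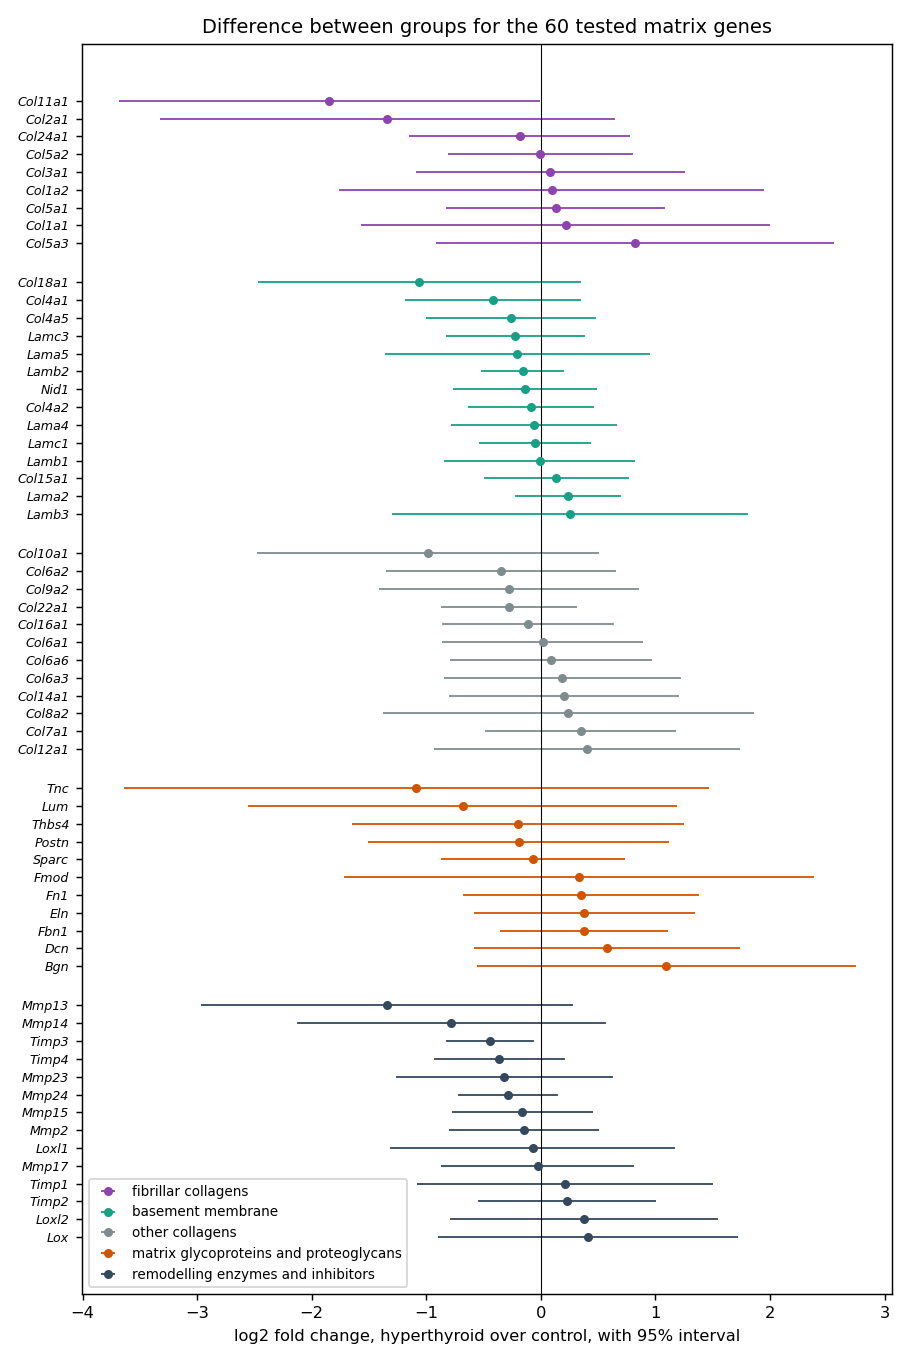
The log2 fold change (hyperthyroid over control, horizontal axis) of each of the 60 tested matrix genes, with its 95% interval from limma as a bar, ordered within 5 classes. The intervals of 58 of the genes include 0, and those of Col11a1 and Timp3 lie just below it.

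What the matrix genes showed instead was a large spread between rats of the same group. The SD of log2 intensity within groups had a median of 0.81 over the 60 genes, against 0.38 over all genes, and 54 of the 60 lay above the median of all genes. Among the tenth of all genes with the largest spread were 22 matrix genes, or 36.7% of them. Dim probe sets vary more on arrays, so the brighter part was compared as well. The 30 brighter members had a median SD of 0.71, and the 4982 genes brighter than the members' median had 0.25. The spread was widest in fibrillar collagens (median SD 1.43) and in glycoproteins and proteoglycans (1.22), and narrower in basement membrane genes (0.55). The 95% interval of the difference lay within a 2-fold change either way for 21 of the 60 genes (35.0%), against 59.3% of all genes, and for 9 of 14 basement membrane genes but 1 of 9 fibrillar collagens. For the other fibrillar collagens the interval takes in a 2-fold difference in at least 1 direction, and the number of arrays limits the precision.

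Sequences just upstream of 4 genes named in the results are shown here as a description, and no result below rests on them. Col1a2 stands for collagen I, Sparc for the transcripts that varied together with it, and Col4a1 for the basement membrane. Timp3 stands for the single gene whose groups did not overlap in the brightest probe set. RefSeq (build GRCr8) gave a window of 250 bases before and 50 after the annotated start for 66 of the 88 members. Capitals mark matches, on either strand, to any of 4 motifs. The TATA box was searched as TATAAA and the CCAAT box by the letters of its name. The GC box was searched as GGGCGG, and the half-site of thyroid hormone response elements was searched as AGGTCA. The windows lie at chr4:33518307-33518606 on the plus strand for Col1a2, chr10:40038767-40039066 on the minus strand for Sparc, chr16:84885347-84885646 on the plus strand for Col4a1, and chr7:19459509-19459808 on the minus strand for Timp3.
Col1a2: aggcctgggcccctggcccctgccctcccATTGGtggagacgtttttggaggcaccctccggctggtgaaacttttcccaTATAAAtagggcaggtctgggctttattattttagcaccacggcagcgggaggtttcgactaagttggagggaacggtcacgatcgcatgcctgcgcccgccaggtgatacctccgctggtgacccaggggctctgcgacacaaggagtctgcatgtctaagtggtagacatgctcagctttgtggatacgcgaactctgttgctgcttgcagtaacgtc
Sparc: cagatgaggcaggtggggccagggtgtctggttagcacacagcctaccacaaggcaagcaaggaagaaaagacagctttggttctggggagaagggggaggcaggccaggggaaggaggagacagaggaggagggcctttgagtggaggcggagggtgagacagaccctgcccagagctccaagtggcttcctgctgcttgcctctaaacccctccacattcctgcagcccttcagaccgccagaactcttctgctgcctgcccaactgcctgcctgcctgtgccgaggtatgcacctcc
Col4a1: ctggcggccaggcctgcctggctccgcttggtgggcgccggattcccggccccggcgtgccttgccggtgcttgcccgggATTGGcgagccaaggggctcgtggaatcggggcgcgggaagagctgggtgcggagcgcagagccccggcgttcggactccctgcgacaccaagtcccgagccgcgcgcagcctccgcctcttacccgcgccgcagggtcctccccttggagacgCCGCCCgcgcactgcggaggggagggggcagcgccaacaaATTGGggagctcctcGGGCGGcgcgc
Timp3: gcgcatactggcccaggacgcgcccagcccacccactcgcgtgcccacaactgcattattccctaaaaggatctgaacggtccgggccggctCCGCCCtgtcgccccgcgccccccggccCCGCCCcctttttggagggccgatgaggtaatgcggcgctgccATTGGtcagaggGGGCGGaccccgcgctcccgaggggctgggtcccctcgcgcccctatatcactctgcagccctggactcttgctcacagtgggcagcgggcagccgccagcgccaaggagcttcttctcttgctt
The Col1a2 window held a TATA box and a CCAAT box, that of Timp3 a CCAAT box and 3 GC boxes, that of Col4a1 2 CCAAT boxes and 2 GC boxes, and that of Sparc no match to any of these letters. A GC box was found in 35 of the 66 member windows (53%) and in 34.9% of all 27457 windows. The TATA box was found in 13 (19.7%, against 14.3%), the CCAAT box in 18 (27.3%, against 37.7%) and the half-site in 5 (7.58%, against 15.7%). The window of Col4a1 shares 176 bases with that of Col4a2 on the opposite strand, as both genes start from a common stretch of chromosome 16. A match to these letters is a description of the window and no evidence that a factor binds there.

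Among fibrillar collagens, 11 genes were on the array and 9 were tested, with 5 log2 fold changes above 0 and 4 below. Their median was 0.08 and their mean -0.23, so that the sign depends on which is taken. Col1a1, a chain of collagen I, the main collagen of tendon and muscle sheaths, had intensities of 470, 592, 7416 and 293 on hyperthyroid replicates 1, 3, 5 and 2, and of 345, 406, 1618 and 1475 on control replicates 7, 8, 9 and 11. The same order of arrays is kept for every gene below. A single hyperthyroid array was far above the rest, another was the lowest of all, and the highest array was 25.3 times the lowest. The log2 fold change of Col1a1 was 0.22 ± 0.83 (SE, limma adjusted p = 0.952), with a 95% interval from -1.57 to 2.00, and leaving out hyperthyroid replicate 5 turned it to the lowest value of all alternatives, -0.81.

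Col1a2, the partner chain of collagen I, read 412, 1324, 11787 and 528 in hyperthyroid muscle, and 732, 548, 2226 and 2951 in controls. Its arrays followed those of Col1a1 (r = 0.96 over 8 arrays, which share all sources of variation of a sample), with the same array on top and the groups overlapping. The log2 fold change was 0.09 ± 0.86 (SE, limma adjusted p = 0.982). Col3a1, of the thinner fibrils that accompany collagen I, had 1940, 4211, 6335 and 2125 in hyperthyroid muscle. In controls it had 2509, 1141, 2884 and 10546, so that here the highest array was a control. Its group means were 3653 ± 2063 and 4270 ± 4251 (SD, n = 4 each), and the difference on the log2 scale was 0.08 ± 0.54 (SE). Col5a1 and Col5a2, chains of collagen V, which seeds fibrils, differed by 0.13 ± 0.44 and -0.0036 ± 0.37, and both were highest on control replicate 11.

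Col11a1, a chain of the related collagen XI, was 1 of the 2 matrix genes with an unadjusted p under 0.05. It read 10.8, 6.57, 157 and 3.21 in hyperthyroid muscle and 64.0, 39.2, 77.5 and 105 in controls. In 3 hyperthyroid rats it was below every control, and in hyperthyroid replicate 5 it was above every control. The log2 fold change was -1.85 ± 0.85 (SE, limma adjusted p = 0.469, unadjusted 0.0487), and without hyperthyroid replicate 5 it was -2.86 (limma adjusted p = 0.192). Those 3 low arrays are under the filter level of 22.4, and the 2 other probe sets of Col11a1 lay under it with log2 fold changes of 0.22 and -0.15. Col2a1, the cartilage collagen, and Col5a3 were also dim and scattered, with -1.34 ± 0.92 and 0.82 ± 0.80, and neither passed.

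**Figure D2:**
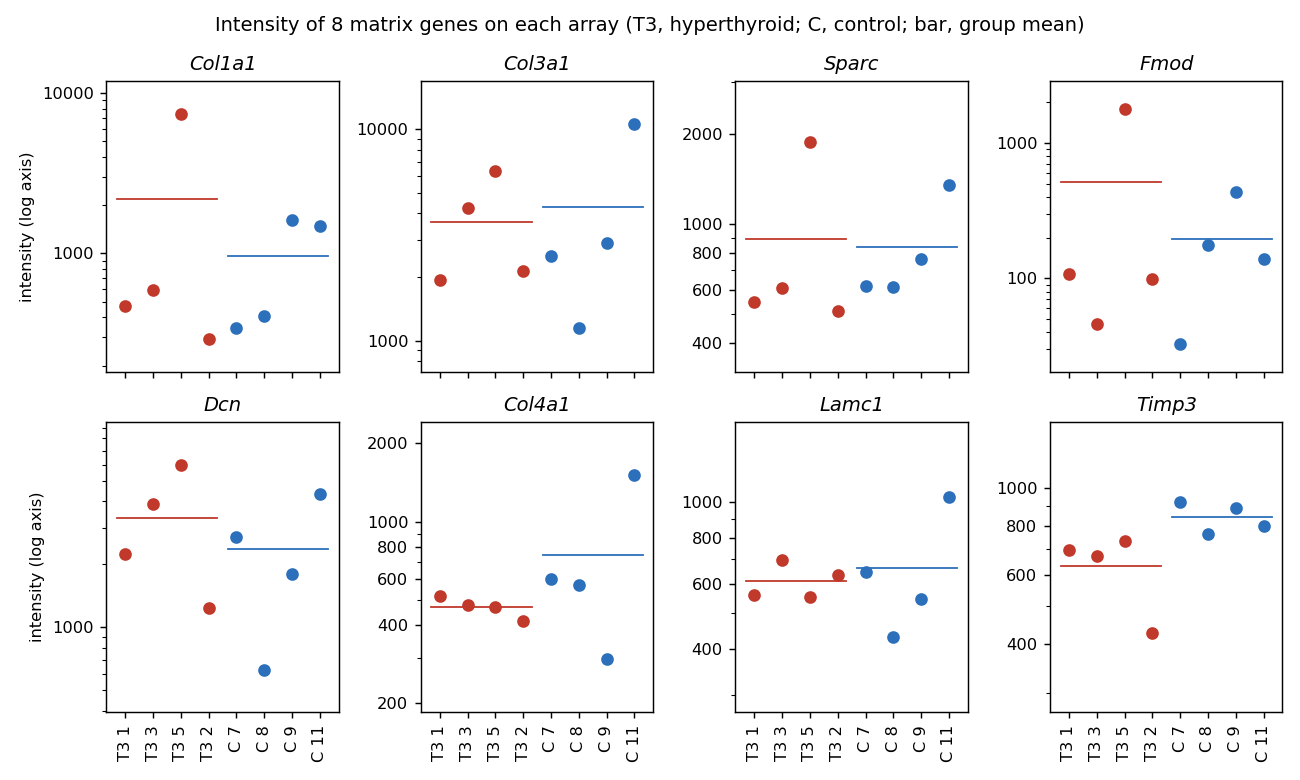
Intensity (vertical log axis) of 8 matrix genes on each of 8 arrays, red for hyperthyroid (T3) and blue for control (C), with a bar at each group mean. Col1a1, Sparc and Fmod are highest on hyperthyroid replicate 5, Col3a1, Col4a1 and Lamc1 on control replicate 11, and only for Timp3 do all hyperthyroid points lie below all control points.

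No difference between the groups was called for a basement membrane gene. Of 18 on the array 14 were tested, 11 had a log2 fold change below 0, the median was -0.11, and 0 reached an unadjusted p under 0.05, against 10.6% of all genes. The direction turned with the scaling, to medians of 0.11 and 0.21 after centring on array medians and scaling to hybridization controls. Col4a1, a chain of the main collagen IV network, read 517, 478, 468 and 414 in hyperthyroid muscle and 601, 573, 295 and 1513 in controls. The hyperthyroid arrays were close together, and the controls ranged from below to far above them. The group means were 469 ± 42.5 and 746 ± 530 (SD, n = 4 each), and the log2 fold change was -0.42 ± 0.35 (SE, limma adjusted p = 0.716). Without control replicate 9, the lowest array, Col4a1 and Col4a5 were lower at an unadjusted p under 0.05, against 5.95% of all genes. Neither passed after adjustment.

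Col4a2, the partner of Col4a1 in that network, had a log2 fold change of -0.09 ± 0.26, and its correlation with Col4a1 was r = 0.77 over 8 arrays. Lama2, the laminin chain of mature muscle whose loss causes a congenital muscular dystrophy, read 441, 467, 505 and 307 in hyperthyroid muscle, and 413, 285, 294 and 479 in controls. The groups overlapped, the log2 fold change was 0.24 ± 0.21 (SE), and its 95% interval reached from -0.23 to 0.70. Lamb1, Lamb2 and Lamc1, which complete the laminin trimers, gave -0.01 ± 0.38, -0.16 ± 0.17 and -0.05 ± 0.23. For Lamb2 and Lamc1 the intervals ended at -0.52 and 0.20, and at -0.54 and 0.44, so that a 2-fold change lay outside both. Nid1, the linker of the collagen IV and laminin networks, and Lama4, a laminin chain of vessels, gave -0.14 ± 0.29 and -0.06 ± 0.33.

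Col15a1, which ties the basement membrane to the fibrils beside it, gave 0.13 ± 0.29. Col18a1, the source of endostatin, read 7.90, 60.6, 63.8 and 9.44 in hyperthyroid muscle, and 55.5, 70.7, 33.1 and 70.8 in controls. A pair of hyperthyroid arrays was far below all controls and the other pair was among them. The log2 fold change was -1.06 ± 0.65 (SE, limma adjusted p = 0.59). Its other kept probe set gave -1.11 ± 0.71 with another order of arrays, at 73.3, 5.09, 27.1 and 6.42 against 35.3, 45.3, 40.9 and 48.0. There hyperthyroid replicate 1 was the highest array and hyperthyroid replicate 3 the lowest. In this class 9 of 14 genes were highest on control replicate 11, and all 14 were above their own mean there.

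The other collagens, of beaded filaments, fibril surfaces and cell membranes, were represented by 23 genes, of which 12 were tested. There were 7 log2 fold changes above 0 and 5 below, with a median of 0.05. Over all 23 without the filter the median was -0.28, with 15 below 0, and the 11 untested genes lay under the filter on low values. Collagen VI forms the microfibrils next to the basement membrane, and mutations of its chains cause muscle disease. Col6a1 read 275, 351, 639 and 248 in hyperthyroid muscle, and 280, 215, 265 and 917 in controls, with hyperthyroid replicate 5 and control replicate 11 on top of their groups. Col6a3 was highest on the same pair of arrays, with 287, 496, 987 and 255 against 500, 193, 242 and 909 (r = 0.91 with Col6a1 over 8 arrays). Log2 fold changes were 0.02 ± 0.41 for Col6a1, -0.35 ± 0.46 for Col6a2 and 0.19 ± 0.48 for Col6a3. None of the 12 reached an unadjusted p under 0.05.

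The glycoproteins and proteoglycans were all above the filter, and 6 of 11 had a log2 fold change above 0, with a median of 0.33. Without hyperthyroid replicate 5 the median was -0.51, and without control replicate 7 or 8 it was -0.19 or -0.08. Sparc, a collagen-binding protein needed for fibril assembly, read 549, 609, 1882 and 512 in hyperthyroid muscle, and 619, 615, 760 and 1352 in controls. Apart from the highest array of each group the values were within a narrow band, and the log2 fold change was -0.07 ± 0.37 (SE, limma adjusted p = 0.967). Dcn, decorin, which coats collagen fibrils and binds TGF-beta, read 2252, 3907, 5997 and 1240 against 2705, 628, 1791 and 4346. Its groups overlapped widely, and the log2 fold change of 0.58 ± 0.54 stayed above 0 under every alternative, from 0.04 to 1.42, without passing the adjusted threshold in any. Bgn, biglycan (1.09 ± 0.76), and Eln, elastin (0.38 ± 0.45), also stayed above 0 in the 21 alternatives in which they were tested. Fbn1, the microfibril protein fibrillin (0.38 ± 0.34), did so in 21 of 22 and reached -0.07 in the other. The other probe set of Eln, under the filter, read 27.1, 64.7, 51.2 and 22.7 against 3.46, 19.6, 9.38 and 6.18. Its groups did not overlap, with a log2 fold change of 1.81, and it is given after its values were seen. Of all tested genes 3.34% were higher without overlap, and the share among probe sets under the filter was not counted.

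Tnc and Fmod had the largest spread within groups of the 60 genes, with SDs of 2.16 and 1.93 in log2 units. Fmod, fibromodulin, had 107, 45.9, 1801 and 99.8 in hyperthyroid muscle, and 32.8, 176, 435 and 140 in controls, the highest array being 55.0 times the lowest. Thbs4, a thrombospondin of tendon and muscle-tendon junctions, had 373, 171, 2280 and 267 against 289, 381, 1443 and 431. Both were highest on hyperthyroid replicate 5 and next on control replicate 9. Tnc, tenascin C, found at muscle-tendon junctions and in repair, had 5.39, 2.48, 286 and 5.05 against 6.02, 33.0, 99.2 and 69.9. It was near background on 3 hyperthyroid arrays and on 1 control array and was highest on hyperthyroid replicate 5. Log2 fold changes were 0.33 ± 0.95 for Fmod, -0.20 ± 0.67 for Thbs4 and -1.09 ± 1.18 for Tnc (SE).

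Postn, periostin, which promotes collagen cross-linking, had 164, 346, 1009 and 159 in hyperthyroid muscle, and 144, 206, 748 and 712 in controls. Fn1, fibronectin, the scaffold on which collagen is deposited, had 393, 641, 1260 and 274 against 500, 171, 450 and 852. In both the hyperthyroid group held the highest array and the groups overlapped. Lum, lumican, a regulator of fibril thickness, differed from these, with 203, 220, 372 and 149 against 373, 29.99, 954 and 1450. All hyperthyroid arrays lay within the range of the controls, the lowest of which was 48.4 times below the highest. Log2 fold changes were -0.20 ± 0.61, 0.35 ± 0.48 and -0.68 ± 0.86 for Postn, Fn1 and Lum (SE), and none passed.

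Of the enzymes and inhibitors of remodelling, 25 were on the array and 14 were tested, with 10 log2 fold changes below 0 and a median of -0.15. After centring on array medians the median was 0.07, and after scaling to hybridization controls 0.17. Timp3, the inhibitor that stays bound to the matrix, was the only matrix gene whose groups did not overlap in the brightest probe set. It read 696, 669, 734 and 427 in hyperthyroid muscle, and 924, 763, 892 and 798 in controls. The margin between the highest hyperthyroid and the lowest control array was small, and hyperthyroid replicate 2 was the lowest. Group means were 632 ± 139 and 844 ± 76.0 (SD, n = 4 each), and the log2 fold change was -0.44 ± 0.18 (SE, limma adjusted p = 0.413, unadjusted 0.0262). Its sign held under all alternatives, from -0.55 to -0.12, and the highest values were those after scaling to hybridization controls (-0.12) and centring (-0.22). The second kept probe set of Timp3 gave -0.30 ± 0.38 and the third, at intensities from 291 to 458, gave -0.0084 ± 0.17. The set under the filter went the other way, with 43.2, 10.8, 69.8 and 64.7 against 16.9, 5.76, 7.74 and 3.65 and a log2 fold change of 1.95. With all kept probe sets averaged, Timp3 was at -0.25.

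The other inhibitors had log2 fold changes of 0.21 ± 0.60 for Timp1, 0.23 ± 0.36 for Timp2 and -0.36 ± 0.27 for Timp4, the last of these abundant in heart and muscle. Timp1 was low on control replicate 8, at 13.1, while the other controls ran from 87.1 to 114. Mmp2, the gelatinase made by muscle fibroblasts, read 136, 191, 297 and 167 against 202, 119, 277 and 293, and the groups overlapped (-0.15 ± 0.30). Mmp14, the membrane enzyme that activates pro-Mmp2, gave -0.78 ± 0.62, and its other kept probe set gave 0.30 ± 0.43. All 7 tested metalloproteinases had a log2 fold change below 0, from -1.34 for Mmp13 to -0.03 for Mmp17, with a median of -0.28, but after centring on array medians 3 of the 7 (Mmp2, Mmp15 and Mmp17) were above 0, with a median of -0.06, and after scaling to hybridization controls 4 were (Mmp24 as well), with a median of 0.04. Mmp13, a collagenase, owed its value to control replicate 9, at 319, while all other arrays of either group lay between 14.1 and 35.5. The cross-linking enzymes Lox, Loxl1 and Loxl2 gave 0.41 ± 0.61, -0.07 ± 0.58 and 0.38 ± 0.54, and Lox and Loxl2 were highest on hyperthyroid replicate 5.

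**Figure D3:**
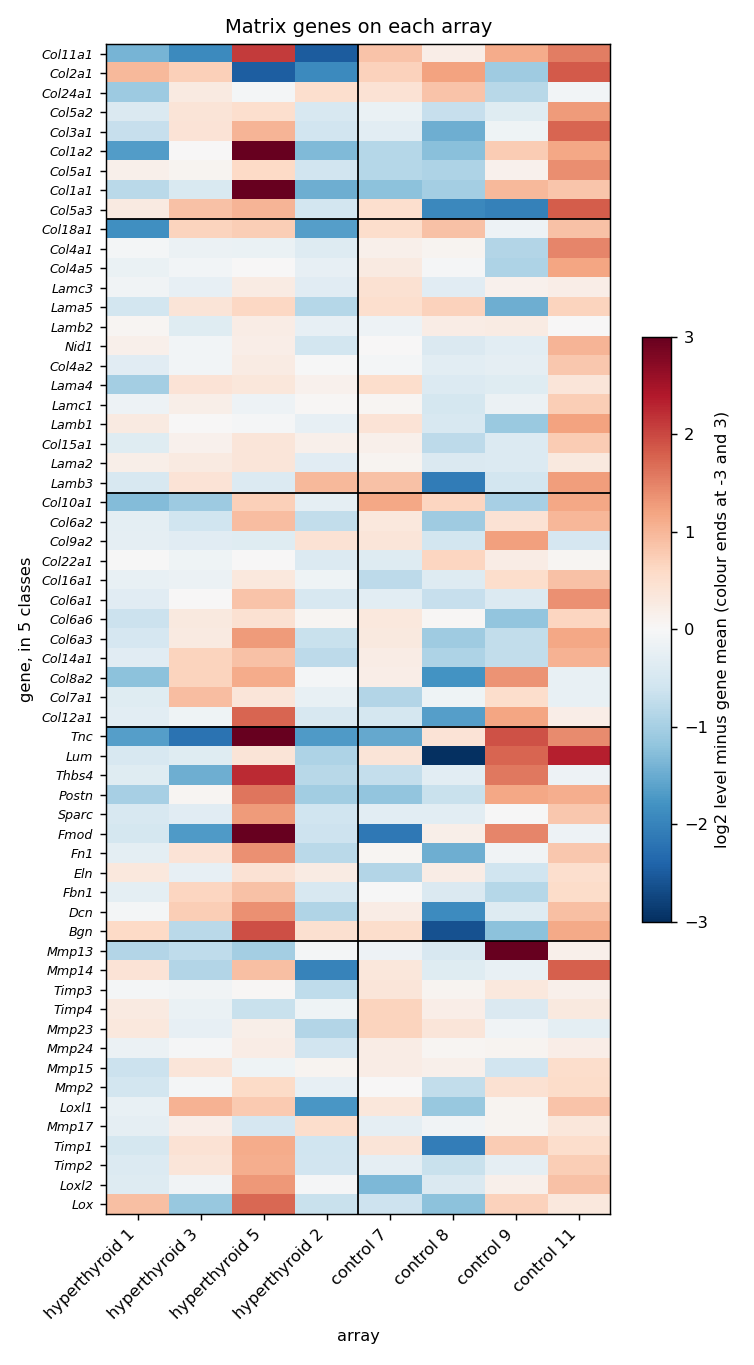
Log2 intensity of the 60 tested matrix genes minus each gene's mean over 8 arrays (colour), with genes in rows in 5 classes (from the top, fibrillar collagens, basement membrane, other collagens, glycoproteins and proteoglycans, remodelling) and arrays in columns. The columns of hyperthyroid replicate 5 and control replicate 11 are mostly red and those of hyperthyroid replicates 1 and 2 and control replicate 8 mostly blue (13, 11 and 18 of 60 genes above their mean), so that high and low columns occur in both groups.

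Many of the matrix genes were high or low on the same arrays. Of the 60, 24 were highest on control replicate 11 and 20 on hyperthyroid replicate 5, against 20.3% and 11.3% of all genes. Control replicate 8 held the lowest value for 22 and hyperthyroid replicate 2 for 11 (36.7% and 18.3%, against 11.2% and 11.3% of all genes). The mean log2 level of the 60 genes, set against their mean over all arrays, was 0.73 on hyperthyroid replicate 5, 0.75 on control replicate 11, -0.54 on control replicate 8 and -0.52 on hyperthyroid replicate 2. Over all genes these means were -0.0031, 0.07, -0.04 and -0.01. The difference between the groups was -0.11, with an SD of 0.55 within the hyperthyroid and 0.53 within the control group.

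All 5 classes were above their mean on both high arrays, in different proportions. On hyperthyroid replicate 5 the glycoproteins and proteoglycans were at 1.67, the fibrillar collagens at 1.01 and the basement membrane genes at 0.18. On control replicate 11 they were at 0.84, 1.28 and 0.77. Of the glycoproteins and proteoglycans, 9 of 11 were highest on hyperthyroid replicate 5, and of the basement membrane genes 1 of 14 was. Over 8 arrays, r was 0.02 between Col1a1 and Col4a1 and 0.89 between Col4a1 and Lamb1. With Col1a1, r was below 0 for some members, lowest for Timp4 (-0.68), Col2a1 (-0.44) and Mmp17 (-0.39). Within groups, the genes closest to Col1a1 after Col1a2 (r = 0.96) were Tnc, Postn, Sparc and Col11a1 (r from 0.93 to 0.94), all of them after removal of the group means.

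Markers of some other cell types were high or low on the same arrays, and those of others were not. Tnmd, tenomodulin, a membrane protein of tendon cells, read 40.7, 39.7, 1340 and 52.1 in hyperthyroid muscle, and 11.04, 67.0, 73.9 and 68.4 in controls. Comp, a tendon and cartilage matrix protein, was also highest on hyperthyroid replicate 5, at 370, and reached 55.9 on control replicate 9, whereas Scx, a transcription factor of tendon cells, was not raised there (179, the others from 103 to 219). These 3 tendon markers outside the matrix genes averaged 2.58 on hyperthyroid replicate 5 and -0.09 on control replicate 11. With Fmod and Thbs4, 5 of 7 listed tendon markers were measured, and their summed intensity ran from 418 to 5970 in hyperthyroid and from 578 to 2222 in control muscle. The 6 tested fibroblast markers outside the matrix genes averaged 0.81 on hyperthyroid replicate 5, 0.72 on control replicate 11 and -0.69 on control replicate 8. Single markers differed. On hyperthyroid replicate 5, S100a4 (1300), Vim (1916), Dpt (1024) and Pdgfra (224) were above their mean intensity over 8 arrays. Pdgfrb (57.2) and Thy1 (46.1) were below theirs. Of 10 listed fibroblast markers 8 were measured, with summed intensities from 1361 to 4798 in the hyperthyroid and from 1580 to 4233 in the control group, and no marker of either list was at 0. Macrophage markers (9 of 9 tested) averaged 0.92 on hyperthyroid replicate 5 and 0.86 on control replicate 11, and -0.87 on hyperthyroid replicate 2 and -0.68 on control replicate 8. Their summed intensities ran from 562 to 2018 in hyperthyroid and from 681 to 1804 in control muscle. Adipocyte markers (3 tested of 5 measured and 6 listed) averaged 0.76 and 0.64 on the high arrays and -0.94 on control replicate 8, with sums from 1196 to 2586 and from 1172 to 2257. Fabp4, by far the brightest of them, was not raised on hyperthyroid replicate 5 (1175) and was highest on hyperthyroid replicate 1 (2502). Marker lists of slow fibres, all skeletal muscle fibres, smooth muscle, endothelium, Schwann cells and nerve, red blood cells, and cartilage and bone differed from these. On hyperthyroid replicate 5 all were below their mean, from -3.08 (slow fibres) to -0.19 (skeletal muscle fibres). On control replicate 11 all were above it, from 0.14 to 2.64 for the same lists. On control replicate 8 they ran from -0.51 to 0.31. The part of tendon, connective tissue, macrophages, fat or these other cell types in the matrix values was not tested.

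**Figure D4:**
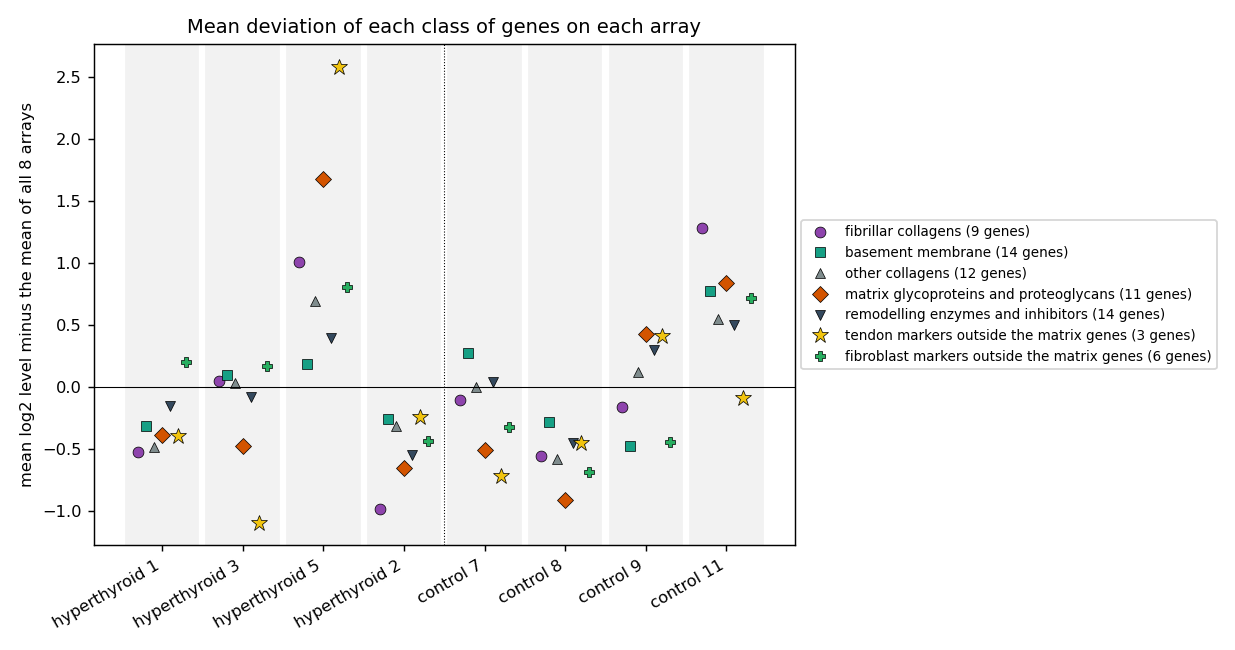
Mean log2 level of 5 classes of matrix genes and of tendon and fibroblast markers outside them on each array, as the difference from their own mean over 8 arrays (vertical axis, log2 units). The tendon markers stand at 2.58 on hyperthyroid replicate 5 and at -0.09 on control replicate 11, while the fibrillar collagens are high on both.

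Leaving out hyperthyroid replicate 5 and control replicate 11 together brought the members' median to 0.0011, with 30 of 60 genes below 0. The genes with an unadjusted p under 0.05 were again Col11a1 and Timp3, both lower, against 3.77% of all genes. Without control replicates 7 and 11, which were also high in slow-fibre transcripts (Myh7, the slow myosin heavy chain, read 5570 and 2692 there and at most 169 elsewhere), the median was 0.29. In that comparison 8 matrix genes were higher at an unadjusted p under 0.05, against 6.02% of all genes. A single one, Mmp13, was lower, against 3.48%. The 8, chosen after their values were seen, were Bgn, Col15a1, Col5a3, Col6a3, Dcn, Fbn1, Lama2 and Lamb1, and none passed after adjustment. Without hyperthyroid replicate 5 and control replicate 9, the arrays highest in Fmod and Thbs4, the median was -0.32 and 7 genes were lower, against 5.53% of all genes. This pair was chosen after seeing the data. The members averaged 0.73 on the first of these arrays and 0.04 on the second, so a fall of the median follows from the choice. The sign of the median thus changed with the rats left out.

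Probe sets of a gene did not always share a direction. Besides the brightest, 27 further probe sets of 24 members passed the filter, 13 of them with the same sign of change as the brightest and 14 with the opposite sign. The second probe set of Col1a1 read 160, 238, 3217 and 159 against 142, 116, 506 and 784, again with hyperthyroid replicate 5 on top. For Sparc the second set read 533, 827, 2141 and 392.4 against 675, 508, 566 and 1416. For Col4a1 the sets were opposed, at -0.42 ± 0.35 and 0.37 ± 0.24, the second with 521 on control replicate 11 against 1513 for the first. None of the 87 kept probe sets of matrix genes passed among 18625 probe sets tested, of which 0.0322% passed.

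Genes that make, bind and signal to the matrix were counted in the same test, in which 5.38% of all genes were higher and 5.21% lower at an unadjusted p under 0.05. Of 17 tested genes of collagen biosynthesis, among them prolyl and lysyl hydroxylases and the collagen chaperone Serpinh1, 0 reached an unadjusted p under 0.05, and the median log2 fold change was 0.09. Of 23 matrix receptors 1 was higher, the integrin chain Itgb5 (1.10 ± 0.47), and 1 was lower, the laminin-binding integrin chain Itga3 (-1.82 ± 0.75), with a median of -0.12. Of 22 other proteases and their regulators 1 was higher, the urokinase gene Plau (0.97 ± 0.44), and 2 were lower, the sheddases Adam10 (-1.30 ± 0.52) and Adam15 (-0.80 ± 0.36), with a median of 0.02.

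The TGF-beta pathway, which drives collagen transcription in fibroblasts, was the list with most genes above 0, at 16 of 20 and a median of 0.19. Of these, 3 were higher at an unadjusted p under 0.05, against 5.38% of all genes, and 0 were lower. Smad3, which carries the TGF-beta signal to the nucleus, read 1290, 901, 536 and 1157 in hyperthyroid muscle, and 462, 523, 696 and 427 in controls. In 3 hyperthyroid rats it was above every control, and in hyperthyroid replicate 5, where collagen I was highest, it was within the control range (0.83 ± 0.25, SE, limma adjusted p = 0.273). Skil, a repressor of Smad signalling, gave 0.68 ± 0.29, and Ccn3, a matricellular protein, gave 0.79 ± 0.35. None of the genes of the 4 lists passed over all genes in the main comparison. Smad3 passed in 2 alternatives. After scaling to hybridization controls, where the median of all genes was 0.32, it was at 1.15 ± 0.26 (SE, limma adjusted p = 0.0459). Without hyperthyroid replicate 5 and control replicate 9, a choice made after seeing the data, it was at 1.23 ± 0.18 (SE, limma adjusted p = 0.04). That pair holds the lowest hyperthyroid and the highest control value of Smad3 (536 and 696), so leaving it out separates the groups by selection and is no support.

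The 28 matrix genes under the filter had low mean values, which does not show that they were absent. Their intensities ran from 0.49 to 117.7, and no group mean exceeded 43.9. Mmp9, a gelatinase of leukocytes, read 1.23, 3.08, 19.7 and 1.21 against 19.5, 0.99, 19.3 and 15.5, and the groups overlapped. In a fit without the filter, 4 of the 28 reached an unadjusted p under 0.05, against 4.44% of all 14217 genes higher and 4.82% lower, and are named here after their values were seen, with Mmp3 higher (2.03) and Col19a1, Mmp12 and Mmp19 lower (-1.65, -1.65 and -1.40). Mmp3, stromelysin, read 26.6, 31.1, 71.7 and 24.0 in hyperthyroid muscle, and 1.63, 1.01, 58.3 and 2.16 in controls. All hyperthyroid arrays were above 3 of the 4 controls, with control replicate 9 inside their range.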

How the data were processed

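Affymetrix arrays, 1 per rat, measured RNA from 8 muscles. Per the labels' protocols, the labelled target was cRNA carrying biotin. The authors deposited intensities on a linear scale. GCOS is named in the submitters' processing notes, with no version. On every array the mean was 150 after 2% of the values were left out at each end. Nothing says more of how separate the rats were, so p-values measure the spread between these samples.

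Tests used log2(intensity + 3.41), where 3.41 is the 10th percentile of the intensities, so fold changes understate those of low transcripts. Probe sets with a mean log2 value above the 40th percentile (4.69, an intensity of about 22.4) were kept, 18625 of 31099, and each gene with 1 symbol was represented by its brightest probe set. Hyperthyroid and control arrays were compared with limma 3.58.1 in R 4.3.3 (lmFit, eBayes with a variance trend, two-sided, Benjamini-Hochberg). The script was tested on simulated data drawn at the real means and spreads of 10200 genes. There, 64 of 100 genes changed by 2 and 33 of 100 changed by 1 on the log2 scale were recovered. The changed genes were picked at random from all genes, with noise independent between genes. These shares therefore do not hold for the matrix genes, whose spread within groups was larger (median SD 0.81, against 0.38 over all genes). Entrez identifiers matched all 88 members to RefSeq with unchanged symbols. Coordinates are printed only for RefSeq windows, on GRCr8.

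Members and lists were chosen with earlier results of these data known. Named were 39 genes whatever their values, any other member with an unadjusted p under 0.05 or without overlap of the groups (Col11a1), and list genes with an unadjusted p under 0.05. Any other member given with values was chosen after its values were seen. Alternatives were other scalings, pseudocounts, filters, variance models and probe set rules, and arrays left out.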

Additional observations from a re-analysis of the deposited data

Results flagged for a closer look

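Among the named genes, an array standing apart from the other 3 of its group on the log2 scale was sought in 80 groups of 4 arrays, of which chance flags about 1 in 20. It was found in 5 groups. On hyperthyroid replicate 5, Sparc was at 1882 (the other hyperthyroid arrays from 512 to 609) and Tnc at 286 (the others from 2.48 to 5.39). On control replicate 8, Timp1 was at 13.1 (the other controls from 87.1 to 114) and Mmp9 at 0.986 (the others from 15.5 to 19.5). Timp3 was at 427 on hyperthyroid replicate 2 (the others from 669 to 734), the array that adds most to its difference between the groups. Without that array Timp3 was at -0.27 on the log2 scale.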

How the results depend on the processing

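No matrix gene passed the adjusted threshold under any of the 22 alternatives run, 20 of them planned and 2 chosen after seeing the data (hyperthyroid replicate 5 left out with control replicate 11 or with control replicate 9). The number of members higher at an unadjusted p under 0.05, 0 in the main comparison, was 1 with no filter and 1 when scaled to hybridization controls, from 0 to 1 with 1 array left out, and 8 without control replicates 7 and 11. The share of all genes that were higher was 5.38% in the main comparison, 4.44% with no filter and 19.9% when scaled to hybridization controls. It ran from 3.92% to 5.85% with 1 array left out and was 6.02% without control replicates 7 and 11. After centring it was 14.1%, and 0 members were higher. The number lower, 2 in the main comparison, was 1 after quantile normalization, with a pseudocount of 12.6, with a filter at the 60th percentile, with all kept probe sets averaged and without control replicates 7 and 11. It was 0 after centring on array medians, after scaling to hybridization controls and without the variance trend, 5 with no filter, and 7 without hyperthyroid replicate 5 and control replicate 9. The share of all genes that were lower was 5.21% in the main comparison, 1.09% after centring, 0.539% after scaling to hybridization controls, 4.82% with no filter and 5.53% without that pair of arrays. In the settings named above with 1 member lower it ran from 3.48% to 5.54%, and it was 5.17% without the variance trend. With 1 array left out, the number of members lower ran from 0 to 5, against 3.95% to 5.95% of all genes. That number was 5 without hyperthyroid replicate 5 (4.6% of all genes). It was 4 without control replicate 8 (4.8%) or control replicate 9 (5.95%). The medians of all members and of the 5 classes each changed sign under some of the alternatives. Each moved by less than the spread between single rats, but that spread is a different measure and does not show that a median was stable. Of 39 named genes tested, 10 kept their sign wherever they were tested, 5 of them in all 22 alternatives and 5 in 21. Of the pathway lists, Smad3 alone passed the adjusted threshold, after scaling to hybridization controls and without hyperthyroid replicate 5 and control replicate 9. The latter leaves out its lowest hyperthyroid and highest control array. No paired analysis was possible because the groups share no replicate number. The number of arrays and the signal over background limit these values.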
